A study of Caenorhabditis elegans with 12 samples.

Results

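Worms of the tau aggregate strain BR5270 were compared with wild-type N2 worms across all measured genes, in whole-worm RNA sequencing of synchronised Caenorhabditis elegans at the day 1 stage. Members were chosen by the genotype and temperature labels, which gave 4 of the 12 libraries of the series: aggregate tau at 22 °C, aggregate tau at 20 °C, wild type at 22 °C and wild type at 20 °C. BR5270 is known as a strain that makes an aggregation-prone fragment of human tau in its neurons. The aggregate state rests on 1 strain, so tau and anything else by which BR5270 differs from N2 cannot be told apart. Each library held RNA of about 5000 worms from 3 plates, and no strain was sequenced more than once at a temperature. Each temperature thus gave 1 aggregate and 1 wild-type library, and temperature cannot be told apart from whatever else differed between these cultures. A further pair of libraries, of the anti-aggregate tau strain BR5271 at 22 °C and 20 °C, carries a tau fragment altered to resist aggregation. It entered the test for its spread and is given below where its values bear on a result.

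Tau is a protein that binds microtubules in nerve cells, and in tauopathies it detaches and clumps into insoluble fibres. Worms that make the aggregating form in all neurons are known for uncoordinated movement and neuronal damage. Several of the genes below belong to nonsense-mediated mRNA decay, the surveillance pathway in which the SMG proteins find and remove messages with early stop codons, including many unproductive splice forms and transcripts of pseudogenes. Others belong to the cuticle, the collagen coat that the epidermis secretes at each moult, or to the germ line, which holds much of the RNA of an adult hermaphrodite.

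The aggregate libraries held 19791392 counts at 22 °C and 15124127 at 20 °C, and the wild-type libraries 24342707 and 26282132. A count was seen for 19115 and 18408 genes in the aggregate libraries, against 16479 and 16508 in the wild types. Ribosomal RNA took between 0.108% and 0.276% of the counts in these 4 libraries, and mitochondrial genes between 1.06% and 1.24%. Scaling by TMM, which sets libraries level on the bulk of their genes, left a median log2 fold change over all genes of 0.27. Total-count scaling left 0.57. The TMM shift depended on level in CPM (counts scaled to library size, TMM-normalised). The median was 1.7 for genes averaging under 1 CPM, 1.07 at 1 to 10 CPM and -0.34 at 10 to 100 CPM. It was -0.53 at 100 to 1000 CPM and -0.41 over 1000 CPM. Each change is to be read against the shift at its level. Markers were read for neurons, in which the transgene is made, though the libraries are of whole worms. The 6 neuronal markers summed to 167 and 138 CPM with aggregate tau, against 157 and 146 CPM in wild type. Most of that sum was snb-1, for synaptobrevin. The other 5 summed to 12.3 and 12.7 CPM with aggregate tau, against 6.48 and 5.01 CPM in wild type, and each was higher at both temperatures. In whole worms, fewer cells of a type and less RNA per cell cannot be told apart.

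The comparison asked which genes differed with aggregate tau at both temperatures. Of 14176 genes tested, 4000 were called (28.2%): 2160 rose (15.2%) and 1840 fell (13.0%) (edgeR quasi-likelihood test, adjusted p under 0.05). All of them went the same way at both temperatures. The test fits a shared tau effect and takes disagreement between the temperatures as spread. That agreement thus follows from the selection and is no separate result. Counts of called list members below stand beside the shares of 15.2% and 13.0% over all genes. The rises were large and the falls small. Genes that rose had a median log2 fold change of 2.41, and those that fell one of -0.74. At least 2-fold changes were fitted for 2033 of the genes that rose and 107 of those that fell. The largest fall among called genes was -2.05, in smg-3.

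**Figure D1:**
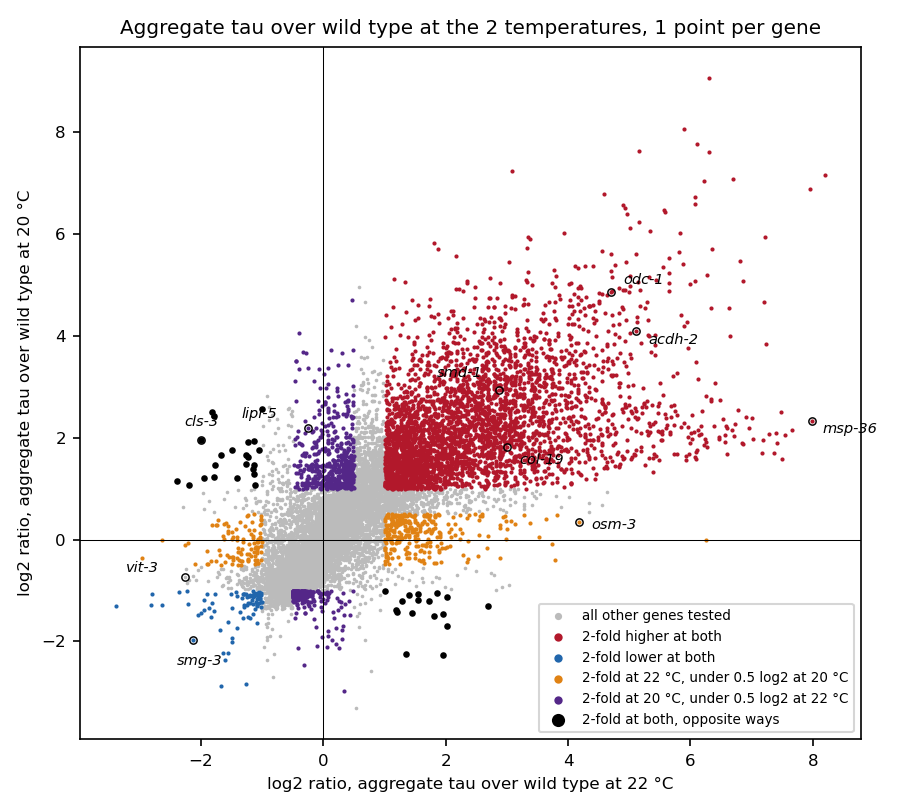
Log2 ratio of aggregate tau over wild type at 22 °C (x axis) against that at 20 °C (y axis), 1 point for each of 14176 genes, coloured by class. Red points, 3545 genes at least 2-fold higher at both temperatures, fill the upper right, and the 84 blue points, at least 2-fold lower at both, sit at the lower left.

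How many genes passed depended on which libraries and which scaling were used. With total-count scaling 1830 genes rose and 178 fell. Without the aggregate library of 20 °C 46 rose and 1 fell, without the wild type of 22 °C 131 and 1, and without the wild type of 20 °C 418 and 18. With the temperature term left out 648 rose and 9 fell. Across 14176 genes the log2 ratios at the 2 temperatures had a Pearson r of 0.785, a description of 2 pairs of libraries that share no library, over genes that are not independent.

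A small group of genes passed whichever library was left out. It held 41 genes that rose and 1 that fell, smg-3, over the 6 libraries left out in turn, and 38 of the 41 also passed in each of the 17 alternatives. Its members were chosen for this behaviour, so what follows describes their levels. Of the 41 genes, 15 were annotated pseudogenes. The pseudogene Y39B6A.21 (V:19047047-19048669) had 227 and 223 CPM with aggregate tau, against 1.92 and 4.92 CPM in the wild types. Y73B3A.18 (X:59366-60750), another pseudogene, stood at 502 and 486 CPM with aggregate tau, against 6.40 and 13.2 CPM in wild type. In both, the anti-aggregate libraries lay with the wild types, between 2.04 and 11.4 CPM. The clone-named genes, linc-9, acdh-2, haly-1, efk-1, fbxa-211, fbxa-140 and cpi-1 were chosen for mention after their values were seen.

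The one fall of that group was in smg-3 (IV:6362395-6373093), which encodes the worm UPF2 protein of nonsense-mediated decay. It had 32.1 and 48.2 CPM in the aggregate libraries, against 140 and 189 CPM in the wild types, a fall of 2.05 on the log2 scale (log2 fold change -2.05, SE 0.19, edgeR adjusted p = 0.000492). The anti-aggregate libraries, at 132 and 178 CPM, lay close to the wild types. By contrast smg-1, for the kinase that acts on SMG-2, rose to 262 and 248 CPM with aggregate tau, against 131 and 156 CPM in wild type (log2 fold change 0.85, SE 0.20, adjusted p = 0.0264). That call on smg-1 was lost in 5 of its 17 alternatives. The other 7 decay factors tested did not pass, with log2 fold changes between -0.74 in smg-9 and 0.17 in smg-5.

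The 13 genes listed as known targets of decay through splicing had a median log2 fold change of 0.00, against 0.27 over all genes. Of these, 3 rose (23.1%, against 15.2% over all genes) and 0 fell. They were tos-1, a gene with many splice forms used as a splicing reporter, and the ribosomal protein genes rpl-7A and rpl-12, known for unproductive splice forms that the pathway removes. In tos-1 (V:9338859-9344203) the aggregate libraries had 604 and 667 CPM, and the wild types had 112 and 134.2 CPM (log2 fold change 2.37, SE 0.22, adjusted p = 0.00047). In rpl-7A they had 2409 and 2778 CPM, against 1208 and 1547 CPM in wild type (0.92, SE 0.19, adjusted p = 0.0155). The counts are per gene, so splice forms within a gene were not separated.

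Annotated pseudogenes made up a larger share of the rises than of the genes tested. Of 564 tested, 317 rose (56.2%) and 1 fell, with a median log2 fold change of 2.36, whereas 1780 of 13285 protein-coding genes rose (13.4%) and 1838 fell (13.8%). Pseudogenes made up 14.7% of the genes that rose and 3.98% of those tested. The low-count filter took in all 6 libraries on wild-type background, so a gene low in wild type could enter through the aggregate libraries alone. Of genes averaging under 1 CPM, 233 of 2236 rose (10.4%) and 0 fell. Shares of rises among pseudogenes, and in lists with low members such as collagens and peptides, rest in part on this filter. Long intergenic non-coding RNAs rose in 14 of 47 cases (29.8%). One of them, linc-9, reached 55.8 and 57.9 CPM with aggregate tau, against 5.397 and 6.68 CPM in wild type. A pseudogene may share reads with its parent gene, since how reads with several matches were counted is not given in the sources used here. With the aggregate library of 20 °C left out 16 pseudogenes were called higher, and with the wild type of 22 °C left out 37.

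There were 23 genes under 1 CPM in both wild types and at 10 CPM or more in both aggregate libraries, and 0 genes the other way round. All 23 were called, and 11 of them were pseudogenes. One was fig-1 (V:10970345-10981213), which encodes a protein of the glia that wrap sensory endings, with 31.6 and 23.3 CPM in the aggregate libraries, against 0.293 and 0.352 CPM in the wild types. The lectin gene clec-165 had 27.1 and 10.5 CPM, against 0.795 and 0.616 CPM in wild type. In the anti-aggregate libraries fig-1 and clec-165 stayed under 2 CPM, but ilys-3, an invertebrate lysozyme gene of the same group, reached 37.2 CPM with anti-aggregate tau at 22 °C.

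**Figure D2:**
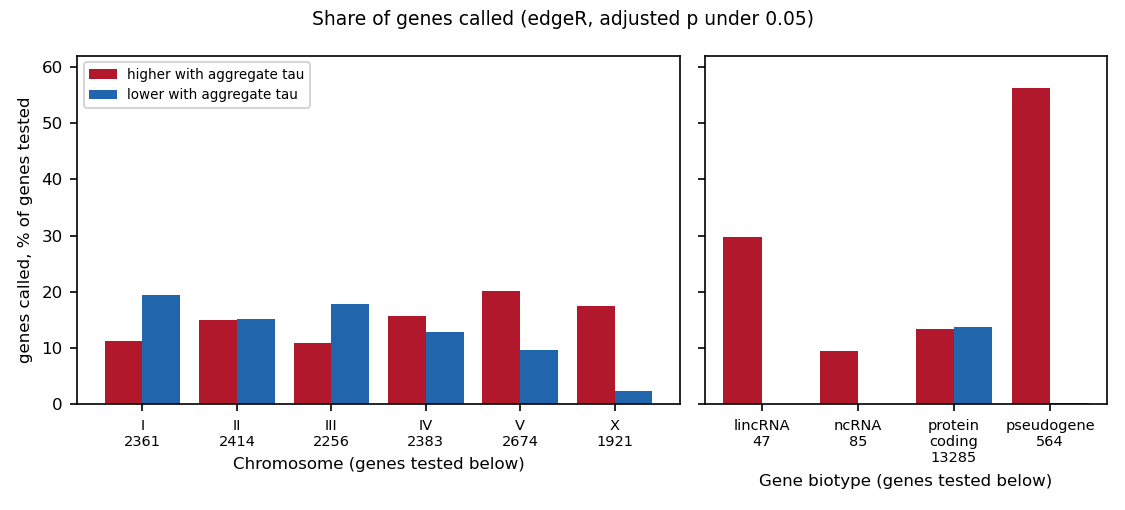
Share of tested genes called higher (red) or lower (blue) with aggregate tau, by chromosome at left and by annotated biotype at right, for biotypes with at least 47 genes. Pseudogenes stand at 56.2% higher, and the X chromosome has the lowest share of falls of the 6 chromosomes, 2.39%.

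Calls were spread unevenly over the chromosomes. On the X chromosome, which the germ line keeps largely silent, 46 of 1921 genes fell (2.39%), against 457 of 2361 on chromosome I (19.4%) and 402 of 2256 on III (17.8%). Rises were most frequent on V, with 539 of 2674 genes (20.2%). Falls also went with expression level. Among genes with a mean of 100 to 1000 CPM, 122 of 2233 rose (5.46%) and 809 fell (36.2%), while among genes of 1 to 10 CPM 1074 of 4545 rose (23.6%) and 9 fell. Level, chromosome and tissue of expression were not separated here.

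Genes of polyamine synthesis were among the rises. Polyamines are small charged molecules made from ornithine, and ODC-1 and SMD-1 catalyse its decarboxylation and that of S-adenosylmethionine, which are the main control points of the pathway. In odc-1 (V:6898540-6900223) the aggregate libraries had 510.3 and 448 CPM, against 19.6 and 15.3 CPM in the wild types (log2 fold change 4.79, SE 0.24, edgeR adjusted p = 6.94e-05). Counts for smd-1 gave 631 and 550 CPM with aggregate tau and 85.8 and 71.1 CPM in wild type (2.92, SE 0.21, adjusted p = 0.000245). For both genes the aggregate libraries were more than 5-fold above every other library on wild-type background, and both passed in all 17 alternatives. Of the 14 genes in the list 6 rose (42.9%) and 3 fell (21.4%), against 15.2% and 13.0% over all genes. The list also took in genes outside that pathway, among them ddo-2, for a D-aspartate oxidase, and hpo-15, both of which rose.

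Other enzymes and regulators rose to similar degrees. The acyl-CoA dehydrogenase gene acdh-2 had 549 and 783 CPM in the aggregate libraries, against 15.9 and 45.9 CPM in the wild types (log2 fold change 4.57). For haly-1, the histidine ammonia-lyase gene, the values were 91.8 and 84.6 CPM with aggregate tau and 14.01 and 9.67 CPM in wild type. In efk-1, the gene of the kinase that inhibits translation elongation factor 2, aggregate libraries had 99.9 and 95.2 CPM, against 23.4 and 25.7 CPM in wild type. That rise was not particular to aggregate tau, since the anti-aggregate libraries had 137 and 159 CPM. Also higher was rpn-6.2, a gene for a proteasome lid subunit, with 198 and 181 CPM, against 30 and 39.5 CPM in wild type (2.47, SE 0.22, adjusted p = 0.000467).

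**Figure D3:**
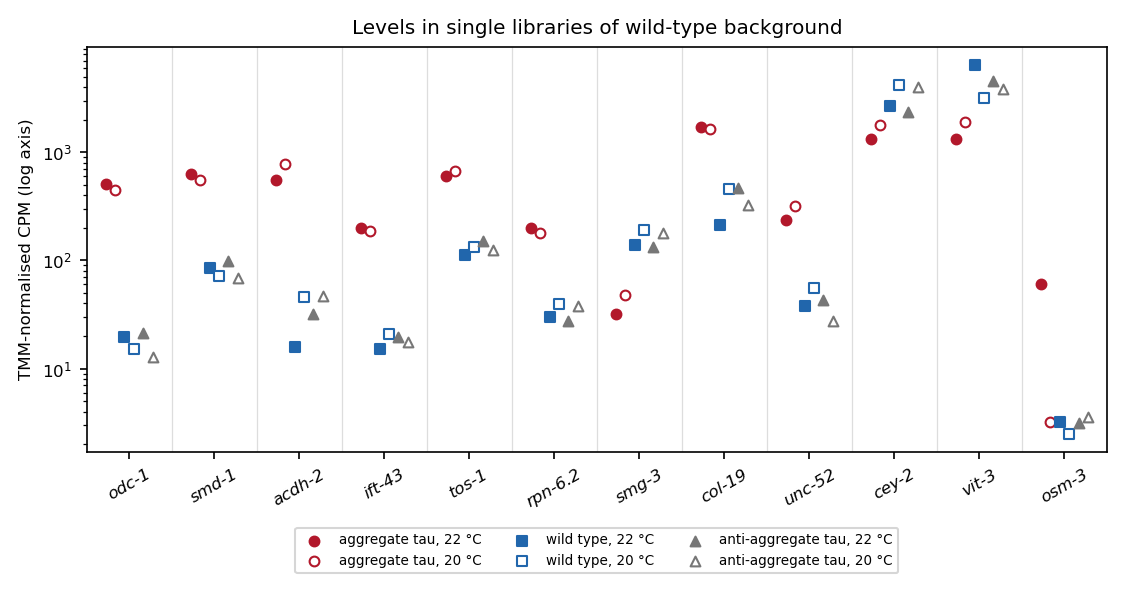
TMM-normalised CPM on a log axis for 12 genes, with 1 point per library of wild-type background: aggregate tau (red), wild type (blue) and anti-aggregate tau (grey), filled at 22 °C and open at 20 °C. The aggregate points stand above the other 4 in odc-1, smd-1 and tos-1 and below them in smg-3, whereas in osm-3 the filled aggregate point, at 60.01 CPM, stands alone.

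Genes of the cuticle rose together. Of 175 collagen genes 123 were high enough in the libraries together to be tested. Of these, 80 rose (65.0%) and 1 fell, with a median log2 fold change of 3.02, and 100 were at least 2-fold higher at both temperatures. The adult collagen gene col-19 (X:421707-422691) had 1719 and 1624 CPM in the aggregate libraries, against 214 and 461 CPM in the wild types (2.34, SE 0.35, adjusted p = 0.00417). Among the collagens named for the largest changes, levels also differed between the aggregate libraries. For instance col-39 had 20.2 and 95.1 CPM with aggregate tau, against 0.335 and 2.24 CPM in wild type, and 7.22 and 0.0635 CPM in the anti-aggregate libraries. Over 175 collagen genes the summed level was 25910 and 28240 CPM with aggregate tau, against 8854 and 10680 CPM in wild type. Without the aggregate library of 20 °C 0 collagens were called, without the wild type of 22 °C 11, and in the fit of all 12 libraries 0.

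Other cuticle genes followed in part, with 26 of 86 moulting and cuticle genes higher (30.2%) and 1 lower. The summed level of that list moved little, at 1098 and 1039 CPM with aggregate tau, against 915 and 967 CPM in wild type. In wrt-4, a hedgehog-related gene of the epidermis, the aggregate libraries had 1.29 and 6.63 CPM and the wild types 0.209 and 0.044 CPM. The astacin proteases, some of which digest the old cuticle, rose in 7 of 22 cases (31.8%) and fell in 0. The astacin gene nas-21 (V:11472564-11473899) stood at 33.0 and 38.2 CPM with aggregate tau, against 0.837 and 1.05 CPM in wild type (5.23, SE 0.41, adjusted p = 0.000282). Of 13 epidermis markers 5 rose (38.5%) and 2 fell (15.4%), against 15.2% and 13.0% over all genes. Summed over 5 defining markers the epidermis reached 1803 and 1715 CPM with aggregate tau, against 332 and 587 CPM in the wild types, where 1 of the markers, dpy-7, had 0 counts in each. Nearly all of that sum was col-19, itself a collagen gene. The other 4 summed to 84.5 and 91.1 CPM with aggregate tau, against 118 and 125 CPM in wild type. Among them elt-3, for a GATA factor of the epidermis, had 12.2 and 12.6 CPM, against 3.35 and 4.13 CPM, and lin-26, for an epidermal zinc-finger factor, 65.1 and 68.2 CPM, against 109 and 117 CPM. The part of epidermal content in the cuticle result was not tested.

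Muscle genes moved one way. Of 33 structural genes 23 rose (69.7%, against 15.2% over all genes) and 0 fell, with a median log2 fold change of 1.18. The perlecan gene unc-52 (II:14647321-14684456), which anchors the contractile units, had 236 and 322 CPM with aggregate tau, against 38.1 and 56.0 CPM in wild type (2.57, SE 0.29, adjusted p = 0.00131). Genes of the giant sarcomere proteins rose as well. In unc-22, for twitchin, aggregate libraries had 103 and 102 CPM and wild types 14.3 and 20.8 CPM, and in ttn-1, for titin, 25.3 and 28.1 CPM, against 3.10 and 4.26 CPM. Body muscle markers summed to 1611 and 1968 CPM with aggregate tau, against 624 and 662 CPM in wild type, and no marker was at 0. Without the aggregate library of 20 °C 0 muscle genes were called, and without the wild type of 22 °C 4.

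Neuronal genes were mixed, although the transgene is made in neurons. Among all genes with a mean of 1 to 10 CPM 23.6% rose, with a median log2 fold change of 1.07. Of 41 synaptic and transmitter genes 8 rose (19.5%, against 15.2% over all genes) and 2 fell, with a median log2 fold change of 0.90. One that rose was unc-13, required to prime synaptic vesicles, with 17.9 and 24.9 CPM in the aggregate libraries, against 3.22 and 3.56 CPM in the wild types (2.65, SE 0.42, adjusted p = 0.00539). Another, unc-25, for the enzyme that makes GABA, had 11.3 and 7.76 CPM, against 1.88 and 1.80 CPM in wild type. The pan-neuronal gene rab-3 did not pass, with 3.95 and 3.79 CPM with aggregate tau and 2.43 and 1.89 CPM in wild type (adjusted p = 0.185). The summed level of the synaptic list ran the other way from its median, at 1203 and 1170 CPM with aggregate tau, against 1388 and 1689 CPM in wild type.

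Rises were also seen among receptors and peptides for signalling between neurons. Of 99 neuropeptide and insulin-like peptide genes 36 rose (36.4%) and 0 fell (median 1.81). Of 56 ligand-gated channel genes 13 rose (23.2%) and 0 fell (median 1.38). Over all genes 15.2% rose. Among all genes with a mean of 1 to 10 CPM 23.6% rose (median 1.07), and among those under 1 CPM 10.4% (median 1.7). The share of ligand-gated channel genes was thus close to that of genes of 1 to 10 CPM. The glutamate receptor gene glr-6 (X:6836210-6840720) had 40.6 and 43.7 CPM with aggregate tau, against 3.72 and 3.17 CPM in wild type (3.61, SE 0.36, adjusted p = 0.000574). Markers of GABA, acetylcholine and touch neurons rose in 5 of 11 cases (45.5%). One of them, mec-12, the touch-neuron tubulin gene, had 9.85 and 15.5 CPM, against 1.42 and 2.68 CPM in wild type. Cilium genes rose in 7 of 35 cases (20.0%, against 15.2% over all genes) and fell in 2 (5.71%, against 13.0%). One of those that rose was ift-43, for a subunit of the intraflagellar transport complex, with 199 and 187 CPM in the aggregate libraries, against 15.1 and 20.7 CPM in the wild types (3.43, SE 0.24, adjusted p = 0.000245). Of 1317 chemoreceptor genes in the files 44 were high enough to test. Of these, 5 rose (11.4%) and 2 fell (4.55%), both under the shares over all genes.

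Of 20 genes for the worm tau homologue, tau kinases and tau modifiers, 3 rose and 3 fell, shares close to the 15.2% and 13.0% over all genes. Those that rose included mec-17, the tubulin acetyltransferase gene, at 9.54 and 11.2 CPM with aggregate tau, against 1.76 and 3.03 CPM in wild type. The paired maph-1 genes, for microtubule-associated proteins, went opposite ways. maph-1.1 rose to 41.6 and 41.7 CPM, against 24.8 and 17.6 CPM in wild type, and maph-1.2 fell to 145 and 167 CPM, against 331 and 292 CPM (log2 fold changes 1.03 and -1.01, SE 0.34 and 0.22). In maph-1.1 the anti-aggregate library of 22 °C, at 46.8 CPM, was above both aggregate libraries. Human tau was not measured here, because the counts are of worm genes.

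Immune genes rose in part. Of 106 C-type lectin genes, many of them induced by infection, 37 rose (34.9%) and 4 fell (median 1.65). Their summed level moved little, at 3829 and 3323 CPM with aggregate tau, against 3193 and 3467 CPM in wild type. With anti-aggregate tau it was 4140 CPM at 22 °C and 3340 CPM at 20 °C. Of 72 lysozyme, saposin and antimicrobial peptide genes 20 rose (27.8%) and 0 fell (median 1.24). Among all genes with a mean of 1 to 10 CPM 23.6% rose (median 1.07). The summed level of the lysozyme list was 5240 and 4420 CPM with aggregate tau, against 3708 and 3339 CPM in wild type. With anti-aggregate tau it was 6099 CPM at 22 °C, above both aggregate libraries, and 3150 CPM at 20 °C. In clec-70 the aggregate libraries had 49 and 57.5 CPM and the wild types 0.879 and 1.14 CPM (5.78, SE 1.06, adjusted p = 0.0103). The anti-aggregate library of 22 °C also had 17.6 CPM of clec-70, that of 20 °C 0.635 CPM. The same held for ugt-18, of the glucuronosyl transferases that conjugate foreign compounds, at 10.3 and 9.36 CPM with aggregate tau, 33.5 and 0.381 CPM with anti-aggregate tau and 0.502 and 0.132 CPM in wild type. It also held for ech-9, of the enoyl-CoA hydratase family, at 19.5 and 14.6 CPM with aggregate tau, 66.5 and 0.254 CPM with anti-aggregate tau and 2.22 and 0 CPM in wild type. Of 90 glucuronosyl and glutathione transferase genes 22 rose (24.4%) and 2 fell. Of 55 cytochrome P450 genes 8 rose (14.5%), close to the 15.2% over all genes, and 2 fell. One that rose, cyp-14A5, had 48.4 and 34.1 CPM, against 9.54 and 3.87 CPM in wild type, with 7.58 and 3.87 CPM in the anti-aggregate libraries.

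Protein quality control showed no broad rise. Of 26 cytosolic heat shock genes 1 rose and 5 fell (19.2%, median -0.54). Of 17 mitochondrial unfolded protein response genes 0 rose and 5 fell (29.4%, median -0.53). Of 33 proteasome subunits 1 rose, rpn-6.2, and 6 fell (18.2%, median -0.57). Over all genes 13.0% fell, and of genes with a mean of 100 to 1000 CPM 36.2% fell, with a median of -0.53. The 3 list medians lay near that value. Among the falls was hsf-1, the master regulator of the heat shock response, at 84.1 and 85.4 CPM with aggregate tau, against 130 and 159 CPM in wild type (-0.76, SE 0.19, adjusted p = 0.0296). The chaperone gene hsp-110 fell to 423 and 438 CPM, against 655 and 776 CPM in wild type. The small heat shock gene hsp-12.3 rose to 11.5 and 7.46 CPM, against 1.046 and 1.495 CPM. Genes of the endoplasmic reticulum response rose in 13 of 65 cases (20.0%, against 15.2% over all genes) and fell in 5 (7.69%, median 0.11). Of these 65, 41 were pqn genes, for prion-like proteins rich in glutamine and asparagine, which the pharynx list below also holds, and 11 of the 13 rises were theirs. Of the other 24 genes 2 rose and 2 fell (median -0.33). With total-count scaling 0 heat shock, mitochondrial response or proteasome genes were called lower, while DESeq2 called 15, 11 and 31 lower in the same order.

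Calls among housekeeping genes, those of defence against oxidation and those of base excision repair varied by list and by fit. Of 81 cytosolic ribosomal protein genes 7 rose (8.64%) and 1 fell (median -0.39), and of 66 respiratory chain genes 2 rose (3.03%) and 2 fell (median -0.27). Of 19 glycolysis genes 3 rose (15.8%) and 2 fell (10.5%, median -0.26), near the 15.2% and 13.0% over all genes. Medians of all genes were -0.34 at 10 to 100 CPM, -0.53 at 100 to 1000 CPM and -0.41 over 1000 CPM. The respiratory and glycolysis medians turned positive with total-count scaling, at 0.02 and 0.03, and DESeq2 called 64 ribosomal protein genes lower. Among 26 oxidative stress genes 3 rose (11.5%) and 2 fell (7.69%), both under the shares over all genes. The glutathione peroxidase gene gpx-4 rose to 42.4 and 9.30 CPM, against 2.80 and 1.10 CPM in wild type (3.56, SE 0.50, adjusted p = 0.00342), and sod-2, for mitochondrial superoxide dismutase, fell to 109 and 108 CPM, against 162 and 199 CPM. Of 11 base excision repair genes 0 rose and 4 fell (36.4%), parp-1, lig-1, apn-1 and exo-3. Of genes with a mean of 100 to 1000 CPM 36.2% fell, against 13.0% over all genes. The glycosylase genes ung-1 and nth-1, mutated in other strains of the series, did not pass: ung-1 had 40.1 and 37.8 CPM with aggregate tau, against 46.8 and 69.3 CPM in wild type, and nth-1 29.96 and 23.04 CPM, against 29.3 and 29.5 CPM.

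F-box genes, a large worm family thought to mark proteins for degradation, had 29 of 185 higher (15.7%, close to the 15.2% over all genes) and 13 lower (7.03%, against 13.0%). In fbxa-211 the aggregate libraries had 124 and 132 CPM and the wild types 9.96 and 16.2 CPM, and in fbxa-140 they had 103 and 87.4 CPM, against 8.16 and 11.4 CPM. In the other direction fbxa-170 had 6.61 and 10.7 CPM with aggregate tau, against 24.3 and 27.3 CPM in wild type (-1.63, SE 0.33, adjusted p = 0.0147). Histones, of which 40 were tested, rose in 1 case and fell in 4. Members of families with near-identical copies may share reads, as may those of the collagen, lectin, msp and vitellogenin families.

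Genes of oocytes and of the germ line fell together by small amounts. Of 32 oocyte and eggshell genes 28 fell and 0 rose (87.5% lower, median -0.75). Of 42 germline and meiosis genes 24 fell and 0 rose (57.1% lower, median -0.67). Of all genes with a mean of 100 to 1000 CPM 36.2% fell (median -0.53). The germline gene cey-2, for a Y-box RNA-binding protein, had 1328 and 1802 CPM in the aggregate libraries, against 2697 and 4201 CPM in the wild types (-1.12, SE 0.19, adjusted p = 0.00725). In egg-1, for an oocyte surface protein needed for fertilisation, they had 476 and 470.2 CPM, against 818 and 956 CPM in wild type. The meiotic spindle gene mei-2 had 175 and 173 CPM, against 286 and 385 CPM. With total-count scaling 3 oocyte and 5 germline genes were called lower, and without the aggregate library of 20 °C 0 of either list. Summed markers of both tissues were also lower in the aggregate libraries. Germline sums were 1098 and 1027 CPM, against 1512 and 1671 CPM in wild type and 1202 and 1563 CPM with anti-aggregate tau. Oocyte sums were 2262 and 2314 CPM, against 4243 and 3773 CPM in wild type and 2817 and 3764 CPM with anti-aggregate tau. At 22 °C the anti-aggregate sums thus lay nearer those of aggregate tau, and at 20 °C nearer those of wild type. The germline sums had log2 ratios of aggregate tau over wild type of -0.46 at 22 °C and -0.7 at 20 °C. These were close to the median ratios of all genes at 100 to 1000 CPM, -0.38 and -0.67. The oocyte sums had log2 ratios of -0.91 and -0.71. The part of a smaller germ line or fewer oocytes in the falls was not tested.

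**Figure D4:**
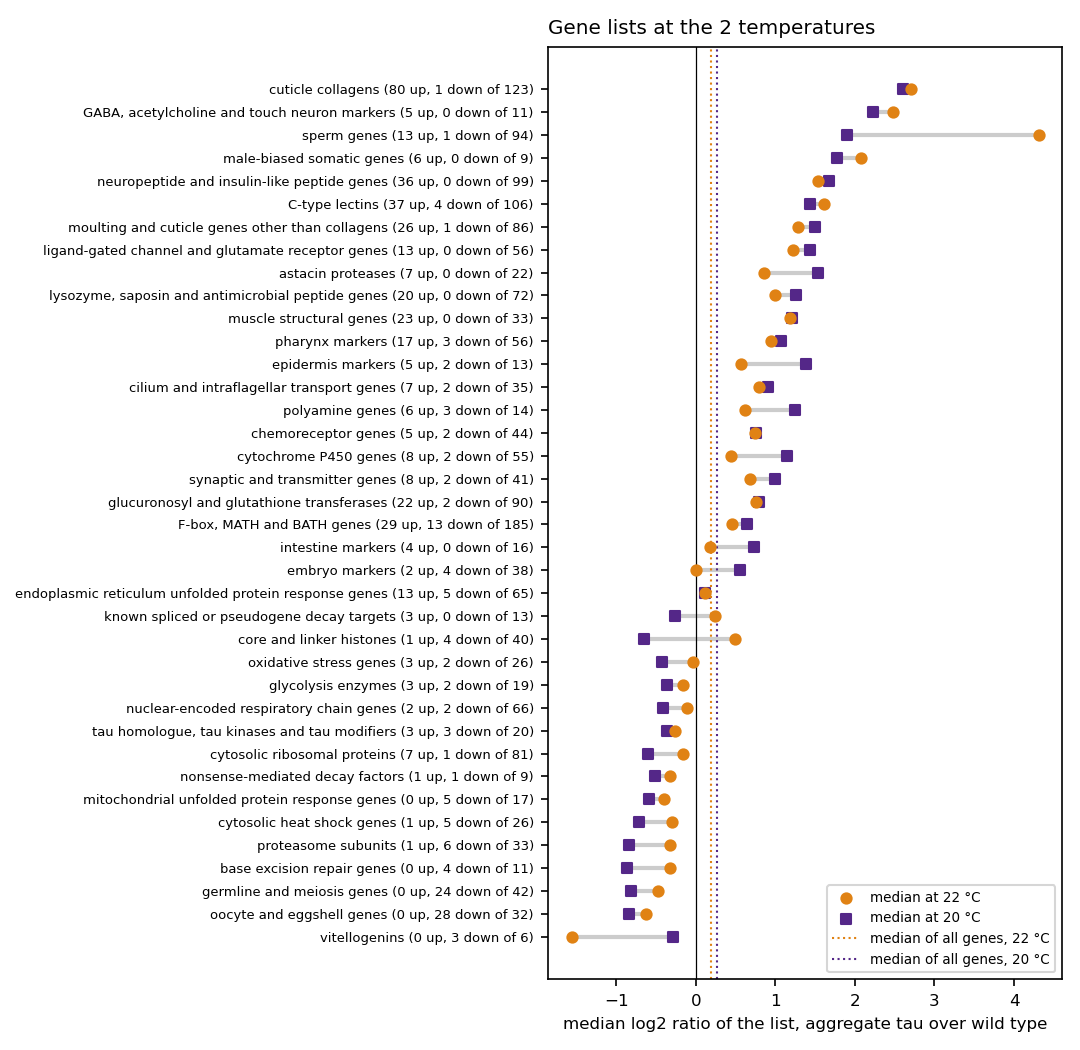
Median log2 ratio of aggregate tau over wild type for 38 gene lists at 22 °C (orange) and 20 °C (purple), with the number called up and down and the number tested beside each name, and dotted lines at the medians of all genes, 0.19 and 0.27. Collagens stand at the right at both temperatures, oocyte and germline lists at the left, and the sperm and vitellogenin lists have the points farthest apart.

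Markers of other tissues moved in part. Of 16 intestine markers 4 rose (25.0%) and 0 fell. Of 56 pharynx markers 17 rose (30.4%) and 3 fell (5.36%), and 41 of the 56 were the pqn genes named above. Of 38 embryo markers 2 rose (5.26%) and 4 fell (10.5%). Of 25 male-biased somatic genes 9 were high enough in the libraries together to be tested, and 6 of these rose (66.7%) and 0 fell. Of the 9 tested, 6 were also in another list, among them clec-168, a C-type lectin gene counted above. It had 1.11 and 0.829 CPM with aggregate tau, against 0 CPM in both wild types. Over all genes 15.2% rose and 13.0% fell, and of genes with a mean of 1 to 10 CPM 23.6% rose. The summed pharynx list ran the other way from its rises, at 3149 and 3210 CPM with aggregate tau, against 3592 and 3805 CPM in wild type.

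Yolk and sperm genes had the list medians that differed most between the temperatures. Vitellogenins, the yolk proteins made in the intestine, summed to 48590 and 49820 CPM in the aggregate libraries, against 101700 CPM in the wild type of 22 °C and 45000 CPM in that of 20 °C. Of 6 genes 3 fell, vit-1, vit-3 and vit-4. In vit-3 (X:3567355-3572549) the aggregate libraries had 1321 and 1906 CPM and the wild types 6336 and 3150 CPM (-1.49, SE 0.32, adjusted p = 0.0182). That call was lost in 7 of its 17 alternatives. vit-2 had 16130 and 16380 CPM with aggregate tau, on both sides of which lay the wild types, with 28940 and 13320 CPM.

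Sperm genes had a median log2 ratio of 4.31 at 22 °C and 1.90 at 20 °C. Of 94 tested, 13 rose (13.8%, close to the 15.2% over all genes) and 1 fell, whereas 73 rose by limma voom. The 33 sperm markers summed to 378 and 638 CPM with aggregate tau, against 2.47 CPM in the wild type of 22 °C and 161 CPM in that of 20 °C. The anti-aggregate libraries had 147 and 9.97 CPM, so libraries of 1 genotype differed by more than 10-fold in the anti-aggregate pair and in the wild-type pair, and 14 of the 33 markers were at 0 in the wild type of 22 °C. The sperm protein gene msp-36 had 24.4 and 36.7 CPM with aggregate tau, against 0 and 7.21 CPM in wild type, and did not pass (adjusted p = 0.122). Hermaphrodites make sperm before they turn to oocytes, and the stage of each culture within day 1 was not measured.

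Between the 2 temperatures the aggregate libraries were closer to each other than the wild types were. Over the 8710 genes that averaged 5 CPM or more in the 4 libraries, the median absolute log2 difference of 22 °C against 20 °C was 0.15 in the aggregate pair, 0.47 in the anti-aggregate pair and 0.37 in the wild-type pair. It exceeded 2-fold in 2.82%, 14.5% and 6.98% of the genes in the same order. The counts of each pair differed by more than sampling noise, with a chi-square per degree of freedom of 21.1 in the aggregate pair, 127 in the anti-aggregate pair and 127 in the wild-type pair. Between aggregate tau and wild type the median absolute difference was 0.48 at 22 °C and 0.76 at 20 °C.

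**Figure D5:**
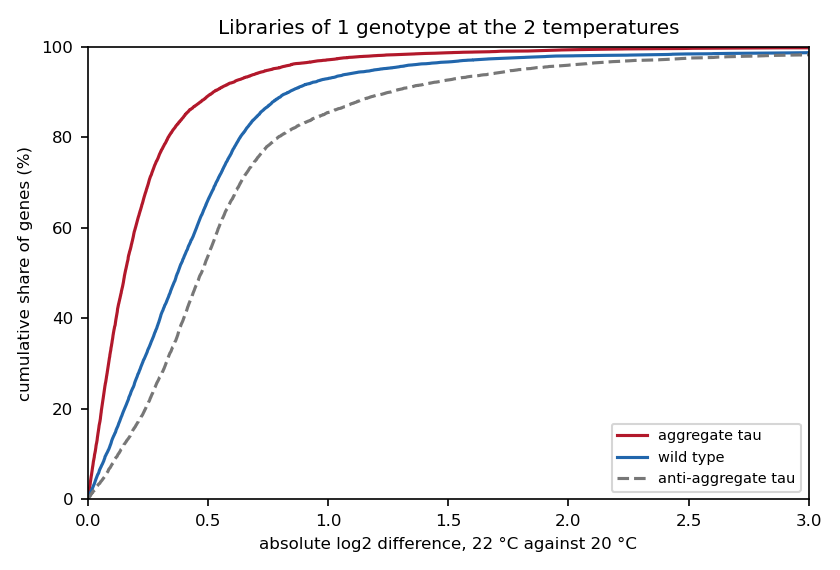
Cumulative share of 8710 genes (y axis, in %) by absolute log2 difference between the library of 22 °C and that of 20 °C (x axis), for aggregate tau (red), wild type (blue) and anti-aggregate tau (grey, dashed). The red curve rises first, with a median of 0.15, against 0.37 in wild type.

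At 22 °C 4303 genes were at least 2-fold higher with aggregate tau (30.4%) and at 20 °C 4812 (33.9%). The 3545 genes higher at both (25.0%) were 82.4% of the list of 22 °C and 73.7% of that of 20 °C. Lower genes overlapped less. At least 2-fold lower were 335 genes at 22 °C (2.36%) and 913 at 20 °C (6.44%), and the 84 lower at both (0.593%) were 25.1% of the first list and 9.20% of the second. These ratios come from single libraries, and the count of shared genes is a description with no test.

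Genes past 2-fold at 1 temperature and within 0.5 log2 of level at the other were fewer. At 22 °C alone 267 were higher and 101 lower, and at 20 °C alone 509 were higher and 304 lower, while 39 went opposite ways. In 394 of the 509 genes higher at 20 °C alone (77.4%) and in 257 of the 304 lower there (84.5%), the wild types of the 2 temperatures differed by more than the aggregate libraries did. This also held for 6515 of the 8710 genes of 5 CPM or more (74.8%), close to the first of these shares. The 509 genes were lower in level, with a median of 2.15 CPM. It held for 68.7% of the 3545 genes higher at both temperatures, with a median of 2.05 CPM. At 22 °C alone it held for 141 of 267 higher genes (52.8%) and 49 of 101 lower ones (48.5%). On the X chromosome lay 116 of the 509 genes higher at 20 °C alone (22.8%) and 47 of the 267 higher at 22 °C alone (17.6%), against 13.6% of the genes tested. No test was made of these shares.

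No difference between the temperatures passed the main test, that of edgeR. In a fit of all 12 libraries with a term for aggregate tau on wild type at 22 °C, 0 of 16034 genes were called (0.00%, edgeR quasi-likelihood test, smallest adjusted p = 1), and 162 had an unadjusted p under 0.05. By limma voom 0 were called and 285 had an unadjusted p under 0.05, and by DESeq2 2 were called, osm-3 and cpi-1, and 229 had an unadjusted p under 0.05. In simulated counts that test recovered 0% of 2-fold and 11% of 4-fold differences, so all but very large differences were beyond it.

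At 22 °C alone the most marked gene was osm-3 (IV:3796300-3801052), for the kinesin that builds sensory cilia. It had 60.01 CPM with aggregate tau at 22 °C and 3.20 CPM at 20 °C, against 3.22 and 2.51 CPM in the wild types. The log2 ratio was 4.18 at 22 °C (95% interval 3.89 to 4.57, counting error only) and 0.34 at 20 °C (-0.21 to 0.92). The difference had an unadjusted p of 0.00219 by edgeR and an adjusted p of 0.00565 by DESeq2, and it rests on 1 library. Other genes named by the same rule were tmem-132, with 47.6 and 6.51 CPM, against 11.5 and 5.23 CPM in wild type, and tbc-1, with 114.7 and 29.3 CPM, against 27.6 and 26.3 CPM. Here too the aggregate library of 22 °C was the one apart. In thn-1, by contrast, the wild type of 22 °C was, at 3.81 CPM, against 16.1 CPM at 20 °C and 28.9 and 19.7 CPM with aggregate tau.

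At 20 °C alone the genes named were ones whose wild types differed. The lysosomal lipase gene lipl-5, known to rise on fasting, had 81.9 and 96.9 CPM with aggregate tau, against 97.5 CPM in the wild type of 22 °C and 21.2 CPM in that of 20 °C. The long non-coding RNA tts-1, which binds ribosomes, had 106 and 160 CPM, against 110.3 and 29.02 CPM in wild type. Likewise unc-80, for a subunit of the sodium leak channel, had 13.7 and 12.4 CPM, against 12.5 and 3.25 CPM. Among genes lower at 20 °C alone were aipr-1 and tut-2, and both fell in the joint test as well. tut-2, which acts in tRNA modification, had 33.6 and 36.7 CPM with aggregate tau, against 47.4 and 84.6 CPM in wild type (-0.85, SE 0.23, adjusted p = 0.0328).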

How the data were processed

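Per the submitters' processing notes, reads were aligned with HISAT2 to WBcel235 and edgeR 3.22.5 was used. Not given in the sources used here are the counting program, its use of strand and its handling of reads with several matches. The deposited files hold raw read counts per gene, 1 file per library, taken as not normalised because they are whole numbers with different totals. Names and positions came from Ensembl 115 (WBcel235), where 46180 of 46589 identifiers were found. The rest took 0.228% of all counts.

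Libraries were grouped by the genotype and temperature labels. Members and gene lists were chosen with earlier results of these data known. The test was that of edgeR 4.0.16 under R 4.3.3 (quasi-likelihood test, TMM scaling, default low-count filter, Benjamini-Hochberg adjusted p under 0.05) on the 6 libraries of wild-type background, with terms for tau state and temperature and 2 residual degrees of freedom. The temperature term pairs 1 aggregate with 1 wild-type library, as the labels give it. With single libraries the p-values measure the spread between these cultures, which may be technical. Standard errors were taken from the fold change and its F value. Ratios at 1 temperature were taken from CPM after TMM scaling, with 2 counts added as prior, and have exact conditional binomial intervals (95%) that cover counting error only. The difference between temperatures was tested on all 12 libraries with 3 residual degrees of freedom. On simulated counts the main test recovered 47% of 2-fold and 91% of 4-fold changes among 14176 genes, with 9 false calls. The simulation changed 200 genes of 5 CPM or more, evenly up and down, and took its spread from the fitted trend. The data had many more calls and larger rises than falls, so the 9 false calls do not give the error rate of the 4000 calls. Depth was 16.9 to 23.9 counts per CPM in the 4 libraries.

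Genes were named by rule: the 12 largest changes each way among called genes that had a gene name and averaged 5 CPM or more, up to 4 called members per list, the 8 largest differences between temperatures each way and the 5 largest in each class of 1 temperature (both from 10 CPM), and a fixed set of decay, yolk and marker genes. The text gives a selection of these. Alternatives were other scaling and filters, DESeq2 1.42.0, limma voom 3.58.1, other sets of libraries, no temperature term, and leaving out each library. Promoter motifs were not analysed here.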

Additional observations from a re-analysis of the deposited data

Results flagged for a closer look

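In 7 named genes the ratios of aggregate tau over wild type had opposite signs at 22 °C and 20 °C, each beyond its counting error. The differences of the log2 ratios, 22 °C minus 20 °C, were -3.94 in cls-3, -2.25 in far-3, -2.44 in lipl-5, -1.14 in vit-2, -1.16 in vit-6, 0.55 in smg-5 and 0.65 in smg-6. None passed the test of the difference (edgeR quasi-likelihood test, adjusted p = 1 for each). In cls-3, a gene of the CLASP family of microtubule-binding proteins, the aggregate libraries had 13.9 and 77.1 CPM, against 55.4 and 19.9 CPM in the wild types. The anti-aggregate libraries, at 82.2 and 92.6 CPM of cls-3, lay above all 4 of them. In far-3, for a fatty acid and retinol binding protein, the aggregate libraries were alike at 12.03 and 11.9 CPM, against 15.6 and 3.17 CPM in the wild types. Likewise vit-6 had 18830 and 18490 CPM with aggregate tau, against 30050 and 13190 CPM in wild type. The decay genes smg-5 and smg-6 had 60.4 and 67.8 CPM and 98.1 and 81.4 CPM, against 44.8 and 73.4 CPM and 87.7 and 114 CPM in wild type.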

How the results depend on the processing

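In place of the 4000 calls, 2008 genes were called with total-count scaling (178 lower), 2132 with at least 5 CPM in 2 libraries (538 lower), 6405 by limma voom (3589 higher, 2816 lower), 6642 with the 4 libraries alone (4085 higher) and 230 with all 12 libraries (227 higher, 3 lower). With the temperature pairing left out (no replicate block) 657 were called, 648 higher and 9 lower. Lower calls numbered 3042 with DESeq2 size factors, 3581 by DESeq2 and 2882 with 12 libraries less the one labelled nth-1 with anti-aggregate tau, which partly goes against its label. Leaving out each library gave 47 to 7852 calls, 46 to 4257 higher and 1 to 3595 lower. The test of the temperature difference called 2 genes by DESeq2 and 0 in every other alternative. With at least 5 CPM in 2 libraries the median of all genes was -0.03, and the medians at 22 °C and 20 °C were -0.01 and -0.04; with total counts they were 0.39 and 0.62. Genes higher and lower at both temperatures numbered 2158 and 5 at 3-fold and 1705 and 9 with at least 5 CPM in 2 libraries, and 22 were lower at both with total counts. At 3-fold the genes of 22 °C alone numbered 105 higher and 22 lower, those of 20 °C alone 172 and 16, and 6 went opposite ways. With at least 5 CPM in 2 libraries these counts were 56, 50, 268, 7 and 6. With total counts 26 were lower at 20 °C alone, and with a prior count of 5 there were 23 opposite genes. The causes were not tested. Over 204 named genes and 17 alternatives, 2316 of 3393 values kept direction and side of the threshold, 910 lost the call, 139 gained it and 28 changed direction. The 28 were in 11 genes, none of them called (cls-3, far-3, his-60, lipl-5, nth-1, pgp-9, smg-6, tts-1, vit-2, vit-5 and vit-6), and 0 of the 28 passed in the other direction. The 2 aggregate libraries of 1 strain, with no replicate culture, limit every result.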
